A study of Arabidopsis thaliana with 6 samples.

Results

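*SWEET4*, *SWEET7*, *SWEET8*, *SWEET13* and *SWEET14* encode sugar transporters of *Arabidopsis thaliana*, and their transcripts were followed in wild-type inflorescences and in those of the mutant *top1α-2*. The 5 genes were picked by symbol among probe sets that report a single gene, from 17 SWEET loci and 13286 named genes in all. They were picked because their signal was lower in *top1α-2*, so the differences between the genotypes are given here as a description, without a test. The wild type was the accession Landsberg erecta (Ler), and the *top1α-2* plants carry a mutant allele of a DNA topoisomerase gene in the same accession. All plants grew at 23 °C in continuous light, no treatment is named, and neither the number of plants per sample nor the floral stages harvested is given in the sources used here. Total RNA of each genotype was hybridised to 3 Affymetrix arrays, which the series calls biological replicates. The array titles shorten the mutant to Trp1, while the genotype field names *top1α-2*, and the level of the mutated gene itself was not analysed here.

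SWEET proteins sit in cell membranes and let sugars pass down their gradient without using energy, which sets them apart from the proton-coupled carriers that pump sugar in. In plants they release sugar from one cell so that a neighbour without its own supply can take it up. In flowers they feed the nectary, the developing seed and the pollen, whose mother cells and microspores lose their direct links to the surrounding anther tissue and are supplied by the tapetum. The family is divided into 4 clades. Clades I and II mostly carry glucose and other monosaccharides, clade III mostly carries sucrose, and clade IV sits in the vacuolar membrane and carries mainly fructose. Of the 5 genes, *SWEET4*, *SWEET7* and *SWEET8* belong to clade II and *SWEET13* and *SWEET14* to clade III.

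Values are log2 MAS5 signals. A step of 1 on this scale is a doubling of the signal, and signals of different probe sets are not compared as levels. Each of the 5 genes had 1 probe set, and all 30 values lay above the median signal of their array. A probe set was called when limma gave an adjusted p under 0.05 over all 22746 probe sets. By that rule 1334 probe sets were lower in *top1α-2*, which is 5.86%, and 773 were higher, which is 3.4%. After median centring of the arrays, the calls were 1167 lower and 1153 higher. Every *top1α-2* array lay below every wild-type array for 14.5% of probe sets. All 5 genes were called lower and were separated in this way, which their choice fixed, so nothing is read from these counts.

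*SWEET8* (AT5G40260), also known as *RPG1* for its ruptured pollen grains, encodes a glucose transporter of microspores and tapetum that is needed for the first layers of the pollen wall. Its wild-type signals were 10.99, 9.41 and 10.48 in replicates 1, 2 and 3, and its *top1α-2* signals were 8.85, 8.40 and 8.91. The 3 mutant arrays lay close together, within 0.51, whereas the wild-type arrays spread over 1.58. Only 2.73% of the brighter 50% of probe sets had a wild-type range above 1. The lowest wild-type array exceeded the highest mutant array by 0.50. The means were 10.29 ± 0.81 and 8.72 ± 0.28 (SD, n = 3), a log2 difference of −1.57 with a standard error of 0.32, or 2.98-fold lower. The size rested on single wild-type arrays, at −1.23 without replicate 1 and −2.02 without replicate 2.

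*SWEET7* (AT4G10850) encodes a transporter that has been shown to carry glucose and xylose when made in yeast. It read 10.39, 10.22 and 10.09 on the wild-type arrays and 8.60, 8.77 and 9.10 on the *top1α-2* arrays. The genotypes were 0.99 apart at their closest, about 2 times the range within the mutant, which was 0.50. With means of 10.23 ± 0.15 and 8.82 ± 0.25 (SD, n = 3), the log2 difference was −1.41 with a standard error of 0.14, a signal 2.66-fold lower. Leaving out single arrays moved this value between −1.30 and −1.55.

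*SWEET4* (AT3G28007) encodes a hexose transporter of the veins of leaves and flowers. It had wild-type signals of 11.10, 11.07 and 11.21 and *top1α-2* signals of 10.40, 10.46 and 10.95. The wild-type arrays were within 0.14 of each other, and replicate 3 of the mutant came to within 0.12 of the lowest of them. The mean fell from 11.13 ± 0.07 to 10.60 ± 0.30 (SD, n = 3), a log2 difference of −0.52 with a standard error of 0.14, or 1.44-fold. Without replicate 3 of the mutant the difference was −0.70, and without replicate 1 it was −0.42.

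*SWEET13* and *SWEET14* encode clade III transporters that carry sucrose and also gibberellin, and plants that lack both open their anthers late. *SWEET14* (AT4G25010) read 11.17, 10.87 and 10.91 in the wild type and 9.26, 9.47 and 9.39 in *top1α-2*. It had the widest separation of the 5 genes, with 1.40 between the closest arrays and a range of no more than 0.30 within either genotype. Its means were 10.98 ± 0.16 and 9.37 ± 0.11 (SD, n = 3), and its log2 difference was −1.61 with a standard error of 0.11, or 3.05-fold lower. With single arrays left out this difference stayed between −1.52 and −1.67.

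*SWEET13* (AT5G50800), which acts together with *SWEET8* in pollen development, read 11.62, 10.81 and 10.94 in the wild type and 10.41, 10.10 and 9.67 in *top1α-2*. Both genotypes were spread, over 0.81 and 0.74, and the gap between their closest arrays was 0.40. The means were 11.12 ± 0.44 and 10.06 ± 0.37 (SD, n = 3), with a log2 difference of −1.06 and a standard error of 0.22, or 2.09-fold lower. The difference was −0.82 without wild-type replicate 1 and −1.24 without mutant replicate 1.

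**Figure D1:**
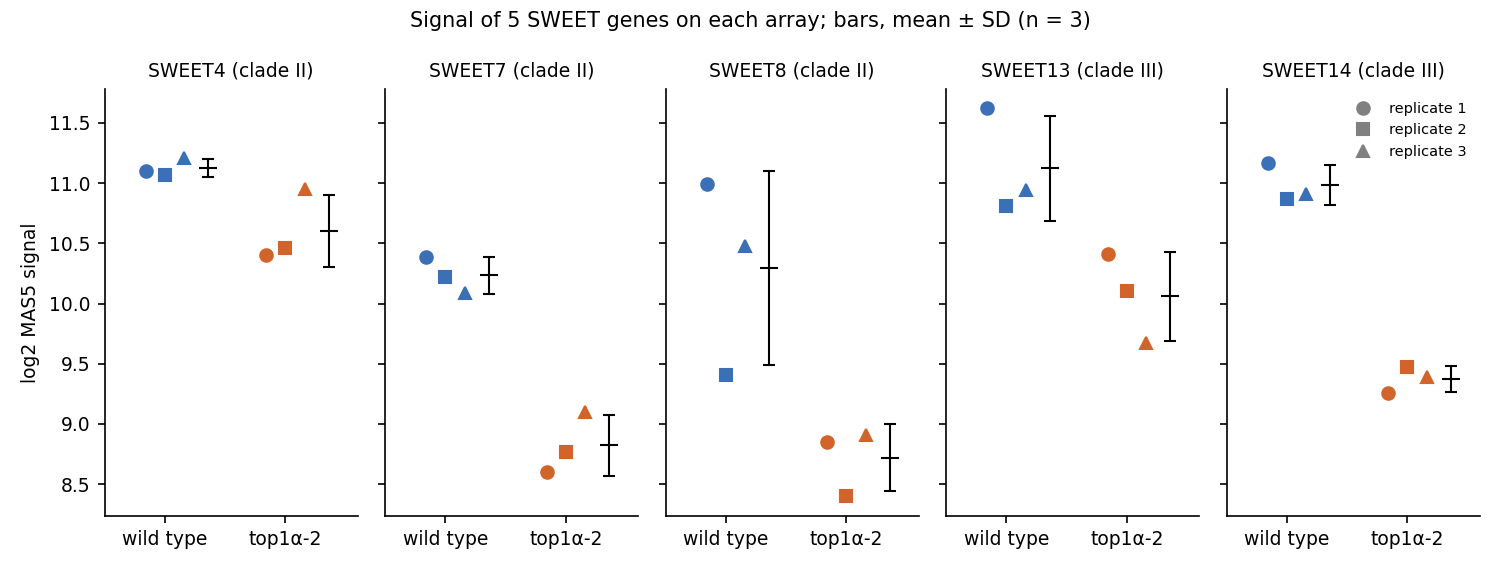
Log2 MAS5 signal (vertical axis) of the 5 SWEET genes on each of 6 arrays, in blue for the wild type and in orange for *top1α-2*, with the marker shape for the replicate number and bars for the mean ± SD of 3 arrays. The genotypes do not overlap in any panel; *SWEET14* shows the widest gap, 1.40, and *SWEET4* the narrowest, 0.12.

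Ordered by the size of the decrease, *SWEET14* came first, followed by *SWEET8*, *SWEET7*, *SWEET13* and *SWEET4*. *SWEET14* and *SWEET8* differed by 0.04 and *SWEET8* and *SWEET7* by 0.16, less than the combined standard errors of 0.34 and 0.35. *SWEET7* and *SWEET13* were 0.35 apart with a combined standard error of 0.27. The step from *SWEET13* to *SWEET4* was 0.54, again with a combined standard error of 0.27. Each combined standard error treats the genes of a pair as independent, although both were read on the same arrays. Clade did not order the decreases, since the first place and the fourth were held by clade III genes. Among all 13286 named genes, 4.72% had a lower difference than *SWEET14*, 5.01% a lower one than *SWEET8*, 6.18% than *SWEET7*, 9.81% than *SWEET13* and 19.6% than *SWEET4*. That ranking includes dim genes, whose signals vary more between arrays. A wild-type range above 1 was found in 24.9% of all probe sets but in 2.73% of the brighter 50%.

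Of the 17 SWEET loci, 16 had a single-gene probe set, and *SWEET12* was not analysed here. Of the 11 measured genes outside the 5, limma called 2 lower and 0 higher, beside 5.86% called lower over all probe sets. An unadjusted limma p under 0.05 was found for 4 of the 11, and the share of all probe sets at that looser threshold was not counted. The median log2 difference of the 11 was −0.23, beside 0.00 over all probe sets. The 2 called genes were 1 of 2 in clade II and 1 of 4 in clade III, while 0 of 3 in clade I and 0 of 2 in clade IV were called. With the 5 genes included, the family had 7 lower calls among 16 genes, of which 5 were fixed by the choice, so the clades are not compared on that count.

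Besides the 5 genes, *AtVEX1* and *SWEET10* were called lower. *AtVEX1* (AT5G62850), which is *SWEET5* of clade II and marks the vegetative cell of pollen, read 10.82, 9.69 and 10.51 in the wild type and 8.36, 7.84 and 8.07 in *top1α-2*. Its log2 difference of −2.25 was the lowest of the family, and its wild-type arrays had the same order as those of *SWEET8*, with replicate 1 highest and replicate 2 lowest. That order was found in 20.4% of all probe sets. *SWEET10* (AT5G50790), a clade III gene switched on at the transition to flowering, lies next to *SWEET13* in the locus order. It read 10.93, 11.21 and 11.16 in the wild type and 10.47, 10.54 and 10.59 in the mutant. Its log2 difference was −0.57 with a standard error of 0.11 and a limma adjusted p of 0.00749. *SWEET10* showed neither the high wild-type replicate 1 of its neighbour nor the low mutant replicate 3.

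The other 9 measured SWEET genes were not called. *SWEET3* of clade I was nearest to the threshold, with a log2 difference of −0.49 and a limma adjusted p of 0.0632, and *SWEET4*, at −0.52, was the member nearest to it from the other side. *SAG29*, which is *SWEET15* and is known from senescing leaves and from seeds, had a log2 difference of −0.31 and separated arrays, with a limma adjusted p of 0.13. *SWEET9*, which is needed for nectar secretion, had a log2 difference of −0.23 and overlapping arrays, which ran from 10.99 to 11.88 for wild-type plants and from 11.06 to 11.57 for the mutant. Its difference was −0.52 without wild-type replicate 2 and −0.07 without wild-type replicate 1. *SWEET11*, of phloem loading, also overlapped, at a difference of −0.23, which was −0.35 without wild-type replicate 1 and −0.11 without wild-type replicate 2. *SWEET1*, a glucose transporter, and *SWEET17*, a fructose transporter of the vacuole, had differences of 0.06 and 0.17, the former at −0.04 after quantile normalization. *SWEET2* had a difference of −0.15. *SWEET6* and *SWEET16* lay below the median signal on every array, at differences of −0.44 and −0.03 with standard errors of 0.53 and 0.47, so changes of the size seen in *SWEET4* would not have been detectable there. The sign of *SWEET16* turned to 0.19 after quantile normalization and to 0.06 after median centring.

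**Figure D2:**
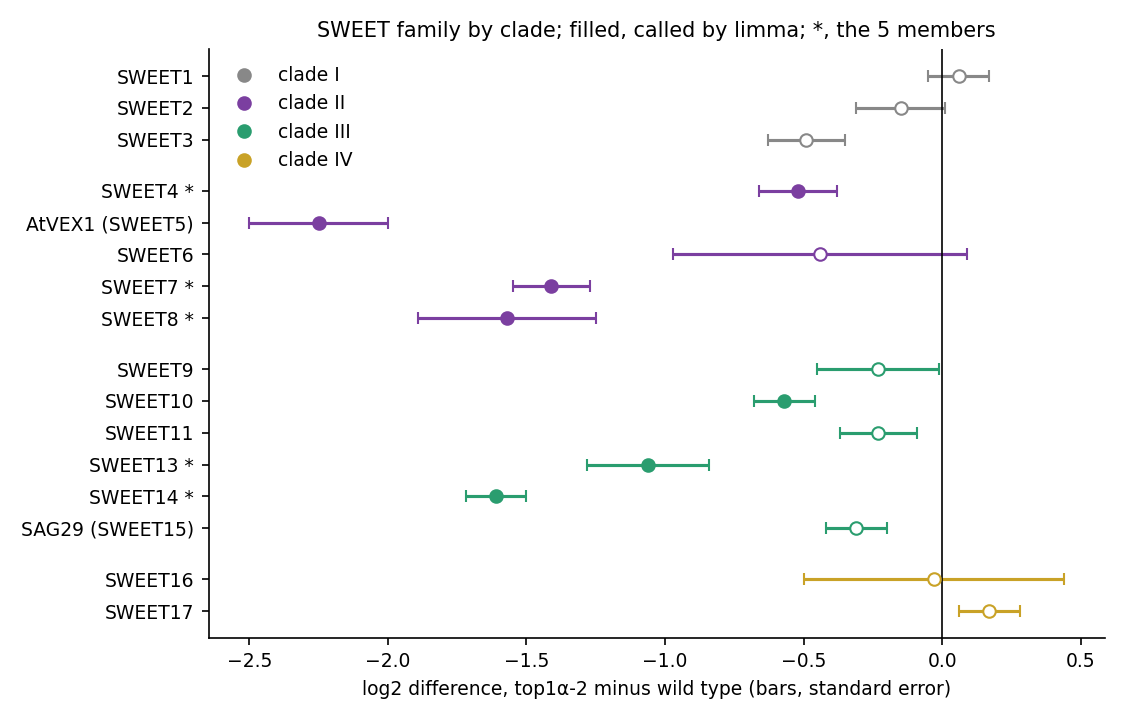
Log2 difference of each of 16 SWEET genes (horizontal axis, *top1α-2* minus wild type, bars for the standard error), grouped by clade; filled points passed limma's adjusted p of 0.05 and asterisks mark the 5 genes of interest. The filled points are all left of 0 and lie in clades II and III, with *AtVEX1* lowest at −2.25. The 5 with asterisks were chosen for being lower, so the clades are not compared on the filled points.

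Within a genotype the 5 genes deviated differently from array to array. Wild-type replicate 1 was the highest wild-type array for *SWEET7*, *SWEET8*, *SWEET13* and *SWEET14*, 4 of the 5, as it was for 37.2% of all probe sets. It stood above the genotype mean by 0.70 for *SWEET8* but was below it for *SWEET4*. In the mutant, replicate 3 was highest for *SWEET4*, *SWEET7* and *SWEET8* and lowest for *SWEET13*. To set the genes side by side without the difference between the genotypes, each gene's genotype means were removed and the root mean square difference over the 6 arrays was taken. The closest pairs were *SWEET4* and *SWEET7*, at 0.13, and *SWEET7* and *SWEET14*, at 0.14, on the log2 scale. *SWEET8*, which had the largest wild-type spread, was between 0.41 and 0.48 from each of the others. *SWEET13* was nearly as far from *SWEET4* and *SWEET7*, at 0.46 and 0.41, and was 0.30 from *SWEET14*. The measure grows with the spread of a gene, so a small value need not mean a shared pattern.

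The measured markers of pollen, tapetum and early anther also had lower mean signals in *top1α-2*. In bulk tissue, fewer cells of a type and less RNA per cell cannot be told apart. Pollen markers, such as the pectate lyase gene *AT59* and the LIM protein gene *PLIM2a*, were called lower in 11 of 11 measured genes out of 13 listed, beside 5.86% of all probe sets, with a median log2 difference of −1.77. Their mean signal was 9.49, 8.80 and 8.88 in wild-type replicates 1, 2 and 3, and 7.25 to 7.36 in the mutant. Replicate 1 was the highest wild-type array for all 11 of these markers, beside 37.2% of all probe sets. The same held for *SWEET7*, *SWEET8*, *SWEET13*, *SWEET14* and *AtVEX1*, and for *SWEET9*, *SWEET16* and *SWEET17*, which were not called. Markers of tapetum and early anther were called lower in 4 of 6 measured genes out of 22 listed, beside 5.86% of all probe sets. Among the called were *ATA27* with a difference of −1.19 and *SPL*, of spore mother cells, with −1.46. The uncalled *AMS* and *EMS1* had −0.95 and −0.31, with limma adjusted p of 0.0671 and 0.191. The mean signal of the 6 was 9.32, 9.37 and 9.43 in the wild type and 8.14 to 8.44 in the mutant, without the high replicate 1. The wild-type order of *SWEET8* was found in 2 of these 6 markers, *BZIP34* and *EMS1*, beside 20.4% of all probe sets. Of the 6, *SPL*, *AMS* and *BZIP34* lay below the median signal on every array. No marker of nectary or phloem from the lists used was matched to a single-gene probe set by the annotation used, so none was analysed. The marker lists were drawn up with earlier results of these arrays known, and their part in the SWEET values was not tested.

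**Figure D3:**
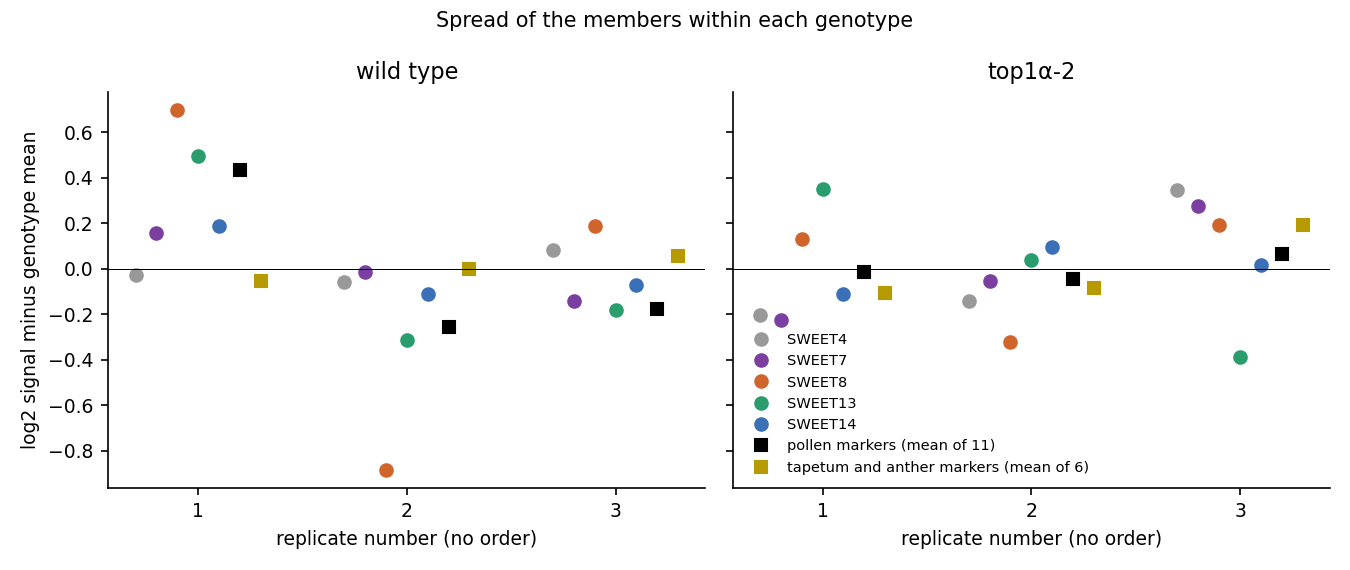
Log2 signal minus the mean of the genotype (vertical axis) for each array, for the 5 SWEET genes (circles) and for the mean of 11 pollen markers and of 6 tapetum and anther markers (squares). *SWEET8* spreads most in the wild type, and wild-type replicate 1 lies high for *SWEET8*, *SWEET13* and the pollen markers but not for *SWEET4* or the tapetum and anther markers.

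For each of the 5 genes, the 2 most similar profiles were sought among 6206 named genes outside the family whose higher genotype mean was above the median of 7.73. The measure was the root mean square difference over 6 arrays after each gene's mean over all 6 was removed, so it includes the difference between the genotypes. Nearest to *SWEET8* were AT3G09930, at 0.114, and the tetraspanin gene *TET11*, at 0.131. *TET11* read 9.45, 8.12 and 8.77 in the wild type and 7.30, 6.94 and 7.29 in *top1α-2*, so its wild-type replicate 2 was also far below replicate 1. Nearest to *SWEET13* were AT5G09480, at 0.156, and *CML42*, which encodes a calmodulin-like protein, at 0.158. Nearest to *SWEET14* were AT1G23690, at 0.104, and *SUFE2*, of iron-sulfur cluster assembly, at 0.124. *SWEET7* was closest to AT5G59845 and AT5G48210, at 0.085 and 0.102, and *SWEET4* to AT3G62650 and AT2G31130, at 0.092 and 0.107. All 10 genes were called lower, which follows from the likeness that chose them.

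Genes beside the 5 on the chromosome were measured at 7 of 10 adjoining positions in the locus order of TAIR10.1, a check chosen after the values were seen. Of these 7, only *SWEET10* was called, beside 5.86% of all probe sets called lower and 3.4% called higher. The amylase gene *AMY1*, next to *SWEET14*, had a log2 difference of −0.27 with a limma adjusted p of 0.399, and AT4G25020 on its other side had −0.02. Beside *SWEET8*, AT5G40250 and AT5G40270 had differences of −0.09 and −0.25. AT5G40270 lay below the median signal on every array, as did AT3G28020, beside *SWEET4*, and AT4G10843, beside *SWEET7*. The differences of AT3G28020 and AT4G10843 were 0.13 and −0.72 with standard errors of 0.56 and 1.11, so little is read from them.

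Other genes of sugar movement were measured at 17 of 68 listed loci, and 2 were called lower and 0 higher, with 5 at an unadjusted p under 0.05. Over all probe sets 5.86% were called lower, and nothing more is read from 2 of 17. The share of all probe sets at the unadjusted threshold was not counted. *TMT3*, a monosaccharide carrier of the vacuolar membrane, read 9.61, 8.32 and 8.99 in the wild type and 7.25, 7.10 and 7.27 in *top1α-2*. Its log2 difference was −1.77 with a standard error of 0.27 and a limma adjusted p of 0.00224, and its wild-type arrays were ordered as those of *SWEET8*, as were those of 20.4% of all probe sets. *TMT1* and *TMT2*, of the same family, were not called, at 0.21 and −0.23. AT2G18480, of the polyol and monosaccharide carriers, read 9.14, 8.66 and 8.58 in the wild type against 6.81, 7.25 and 7.37. It had a log2 difference of −1.65 with a standard error of 0.21 and a limma adjusted p of 0.000665.

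The remaining sugar genes showed small or uncertain differences. The 4 measured genes of the STP family of proton-coupled monosaccharide carriers had differences from −1.04 to −0.11 and were not called, and 3 of them lay below the median signal on every array. Among enzymes, the invertase gene AT1G62660 had a difference of −0.49 and *ATSPS4F*, of sucrose synthesis, −0.14. The proton-coupled sucrose carriers of the SUC family, which take up sucrose that SWEET proteins release, were not analysed here.

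Because *SWEET13* and *SWEET14* carry gibberellin, genes for its synthesis, perception and breakdown were listed as well, and 5 of 31 loci were measured. By limma 0 of the 5 were called, beside 5.86% of all probe sets called lower and 3.4% called higher. Of the 5, 0 had an unadjusted p under 0.05, and nothing more is read from so few genes. The receptor genes *GID1A*, *GID1B* and *GID1C* had log2 differences of 0.22, 0.25 and −0.06. *GID1B* and *GID1C* lay below the median signal on every array. *SLY1*, which encodes the F-box protein that removes the repressors of gibberellin responses, had a log2 difference of 0.26. AT1G68570, known as *NPF3.1*, a carrier of another family, had 0.18. The synthesis genes were not among the 5.

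**Figure D4:**
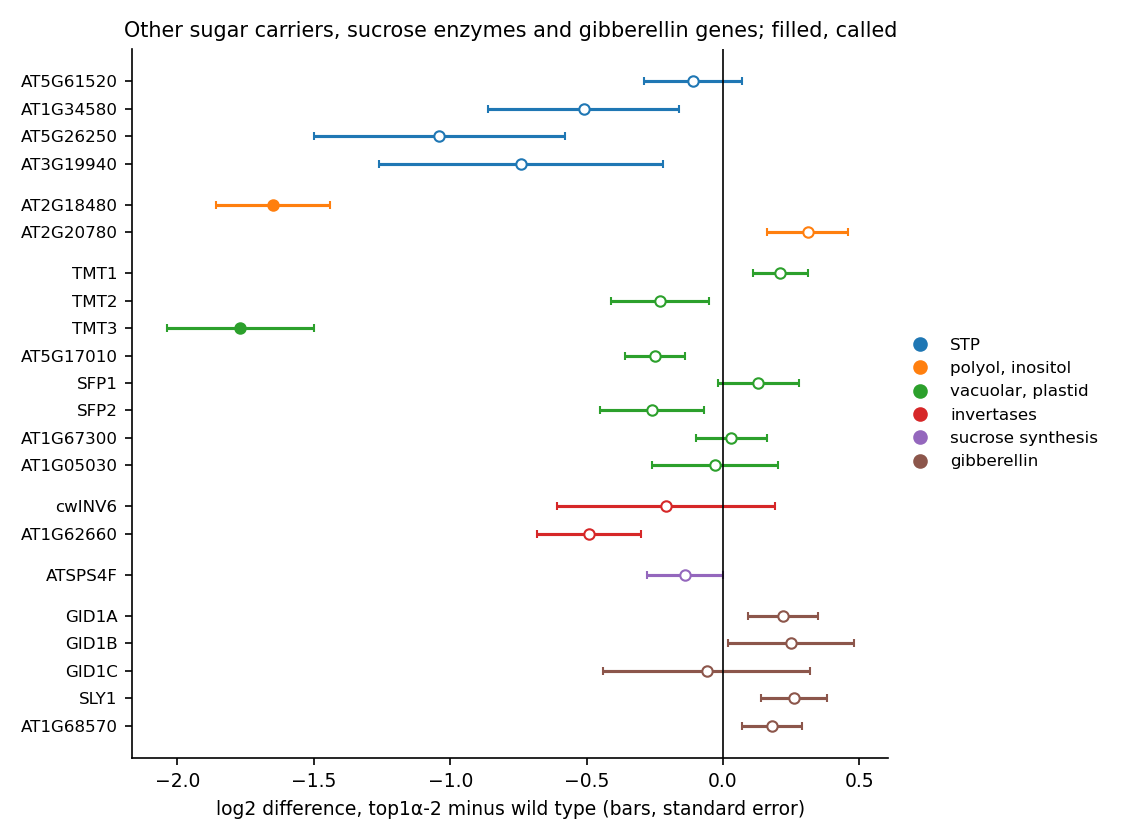
Log2 difference (horizontal axis, *top1α-2* minus wild type, bars for the standard error) of 17 genes of sugar carriers and sucrose enzymes and of 5 gibberellin genes, coloured by list, with filled points for those called by limma. *TMT3* and AT2G18480 are the filled points, at −1.77 and −1.65.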

How the data were processed

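Inflorescence RNA was measured on 3 arrays per genotype. The authors deposited 1 column of log2 signals for each array, made with affy and MAS5 per the submitters' processing notes, in versions not given in the sources used here. Detection calls were not used. After trimming 2% of probe sets at either end, each array had a mean unlogged signal of 500. Array number limits the precision. Each limma p-value sets a difference against the spread between these samples, after that spread is drawn towards a trend over all probe sets. Of 22810 probe sets, 64 controls were set aside. The other 22746 were fitted with limma 3.58.1 in R 4.3.3 on genotype alone, with lmFit, eBayes with a trend and Benjamini-Hochberg adjustment over all of them, and the fit was tested on simulated data. The platform annotation names 1 gene for 13513 probe sets and several for 503, and 13436 of the former matched RefSeq's TAIR10.1 table. The remaining probe sets had no gene named there. A listed locus that was not measured may therefore still have a probe set on the array. The probe set with the highest mean signal represented each gene. SWEET loci, clades and gene lists were matched by locus code. Members and lists were chosen with earlier results of these data known. Named were all measured SWEET genes, called genes of the sugar and gibberellin lists, and 2 genes nearest in profile to each of the 5. Other uncalled genes were named after their values were seen. Similar family members may share signal on a probe set. Alternatives were quantile normalization, median centring, no variance trend, a pseudocount of 16, removal of the dimmest 50%, the replicate number as a block, every single-gene probe set, and each array left out. No sequences are shown, since none were used here.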

Additional observations from a re-analysis of the deposited data

How the results depend on the processing

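All 5 SWEET differences kept their negative sign, and moved by less than the SD between replicates pooled over both genotypes, in each of 12 alternatives. Most of these could not have turned the sign. Dropping the variance trend or the dimmest probe sets, or adding the replicate block, leaves a difference unchanged. With separated arrays, a pseudocount or a left-out array cannot turn its sign. Median centring moved every difference by the same amount, about 0.09, which was less than the smallest decrease, so it could not turn a sign either. It left *SWEET4*, with the smallest decrease, at −0.43. Quantile normalization could have turned a sign, and there *SWEET4* stood at −0.53. *SWEET7* and *SWEET14* were called in all 12, *SWEET13* in 10, *SWEET8* in 9 and *SWEET4* in 4. *SWEET8* lost its call without wild-type replicate 3 and without mutant replicate 2, *SWEET13* without mutant replicate 3, and *SWEET4* without any single array except mutant replicate 3, after median centring and with a pseudocount of 16. These 3 also lost it without the variance trend, where the family had 3 lower calls in place of 7, other sugar genes 1 in place of 2, and all probe sets 209 higher and 633 lower. There *SWEET10* had a limma adjusted p of 0.0801 and *TMT3* of 0.0566, and both were called in the other 11 alternatives, from 0.00324 and 0.000255 upwards. With each array left out the family had 5 to 6 lower calls and all probe sets 357 to 794 higher ones, with the lowest counts, 357, 411 and 373, without mutant replicates 1, 2 and 3. The cause was not tested. Deviations of same-numbered arrays from their genotype means correlated at 0.089 to 0.208 over the brighter probe sets and those of other pairs at −0.092 to −0.024. All 6 arrays correlated best with their own number, a hint from the data and not the design. With the replicate block there were 748 higher and 1342 lower calls and 7 in the family.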
